A study of Mus musculus with 15 samples.

Results

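The change in transcript levels between 3 and 7 days post partum (dpp) was measured in spermatogonia labelled as Akt1s1 knockout. The 5 knockout (KO) libraries were 16 and 18 at 3 dpp and 4, 5 and 6 at 7 dpp, named by the number in their titles. Of 27128 gene names in the files, 15467 reached a signal of 1 in 2 or more of these 5 libraries and make up the comparison. The other 11661 names were not tested, and 4603 of them were at 0 in all 5 libraries. The series as a whole holds 15 libraries of testis cells sorted by flow cytometry for green fluorescence after digestion with collagenase, DNase I and trypsin. All mice carried a Pou5f1-Gfp transgene, which reports the promoter of Pou5f1 (OCT4). KO mice were Akt1s1 null as well, and the labels do not say which part of the gene was removed. Wild-type (WT) mice with the same transgene gave libraries 13, 14 and 15 at 3 dpp and 2 and 3 at 7 dpp, used here for reference. Whether the libraries of a group stem from different mice is not stated in the labels. The p-values therefore reflect the variation among libraries alone, and that variation may be technical.

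Akt1s1 encodes PRAS40, a subunit of mTORC1, the kinase complex that couples growth signals to protein and lipid synthesis. PRAS40 binds raptor and restrains the complex. In the mouse testis, prospermatogonia resume division in the first days after birth and give rise to stem and progenitor spermatogonia, which depend on GDNF and FGF from somatic cells. Retinoic acid then drives part of the progenitors into the KIT-positive differentiating state, in which Stra8 is induced.

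Values are a signal per gene that behaves as TPM (transcript abundance relative to the library total) times one factor per library, so the read number behind a value is unknown. The Akt1s1 signal was 35.2 and 33.4 in the KO libraries at 3 dpp and 39.8, 39.5 and 37.2 at 7 dpp, against 52.4, 51.0 and 49.4 and 54.5 and 72.9 in WT. Each KO value lay below each WT value, and none was near 0. Whether this signal comes from the removed part of the gene is not known, so it does not check the genotype, and KO stands throughout for the libraries labelled as knockout. Pou5f1, whose promoter drives the sorting marker, was at 141 and 164 in KO at 3 dpp and at 514, 255 and 629.8 at 7 dpp. It rose by 1.51 ± 0.34 on the log2(signal + 1) scale (± SE; adjusted p = 0.0105; 0.052 without library 16), and in WT by 1.95 ± 0.34. Column totals were 1183294 and 1178330 at 3 dpp and 969003 to 1075136 at 7 dpp in KO. The number of genes at a signal of 1 or more ran from 14515 to 15257. Libraries of the same age correlated across genes with r of 0.971 at 3 dpp and 0.977 to 0.987 at 7 dpp. Library 18 differed from library 16, among others in the abundant transcript Rmrp, the RNA of RNase MRP, at 3707 against 53.9. The first principal component of the 5 libraries held 61.9% of the variance and set 3 dpp (-42.6 and -50.1) against 7 dpp (48.2, 15.7 and 28.7 in libraries 4, 5 and 6). Library 5 was the 7 dpp library nearest to 3 dpp on this component. The second component held 19.4% and set library 16 (33.31) against library 18 (-33.85). The 7 dpp libraries 4, 5 and 6 lay between them (-9.59, 8.12 and 2.02).

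At an adjusted p under 0.05, 4379 genes differed between the ages in KO, which is 28.3% of the genes tested. Of these, 2338 (15.1%) were higher at 7 dpp and 2041 (13.2%) were lower. A change of at least 2-fold was seen in 560 of the genes that rose and 650 of those that fell, and a change of at least 4-fold in 51 and 111. Provisional gene models made up 515 of the 4379. The values of the ages did not overlap in 4373 of the called genes, a pattern shown by 55.4% of all genes tested. For 268 of the called genes the signal threshold was met through one age alone. Among them were Dppa3, Fgf2 and Gata1 of the gene lists used below, and such calls support nothing on their lists. The count fell to 2291 without library 18, to 2701 without library 6 and to 3160 without library 16. Rescaling all libraries to the same total moved the median difference of all genes from 0.02 to 0.20 on the log2 scale, and the calls then split into 4139 higher and 1235 lower (77.0% higher, against 53.4% as deposited).

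Undifferentiated spermatogonia were represented by a list of 31 tested genes, of which 16 fell (51.6%) and 7 rose (22.6%) from 3 to 7 dpp in KO. Over all genes tested 13.2% fell and 15.1% rose, and the share of each list below is to be set beside these. The median log2 difference of the list was -0.88, against 0.02 over all genes tested. The members that fell included the receptors for GDNF and the transcription factors that act downstream of it, and those that rose included Neurog3 and Upp1. Here and below, fewer cells of a type and less RNA per cell cannot be told apart in bulk libraries. Without library 16 the counts were 11 lower and 6 higher, and without library 18 they were 11 and 3.

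Gfra1, the co-receptor that binds GDNF, was at 164 and 192 in the KO libraries at 3 dpp and at 11.8, 89.7 and 45.4 in libraries 4, 5 and 6 at 7 dpp. The difference was -2.24 ± 0.59 (adjusted p = 0.0197). Its signalling partner Ret, a receptor tyrosine kinase, went from 155 and 173 to 28.4, 99.7 and 63.5 (-1.52 ± 0.38, adjusted p = 0.0153). In both receptors library 5 kept the highest signal at 7 dpp and library 4 the lowest, and the ages did not overlap. Id4, an inhibitor of DNA-binding proteins that marks the stem cell fraction, fell from 198 and 187 to 15.9, 57.4 and 37.8 (-2.52 ± 0.38, adjusted p = 0.0023). Lhx1, a homeobox factor induced by GDNF, fell from 34.2 and 50.1 to 1.22, 10.3 and 5.03 (-2.99 ± 0.56). Bcl6b, a transcriptional repressor also induced by GDNF, fell from 95.7 and 122 to 17.1, 42.7 and 30.4 (-1.90 ± 0.32). Of the 16 list members that fell, 14 had their highest 7 dpp value in library 5. Over all 2041 genes that fell, library 5 held the highest 7 dpp value in 70.1%. T (brachyury) was among the exceptions, at 8.95 and 18.0 at 3 dpp and 0.349, 0.806 and 1 at 7 dpp. Lhx2, another LIM homeobox factor, fell from 28.7 and 28.5 to 8.44, 9.82 and 8.74, with little spread within either age.

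**Figure D1:**
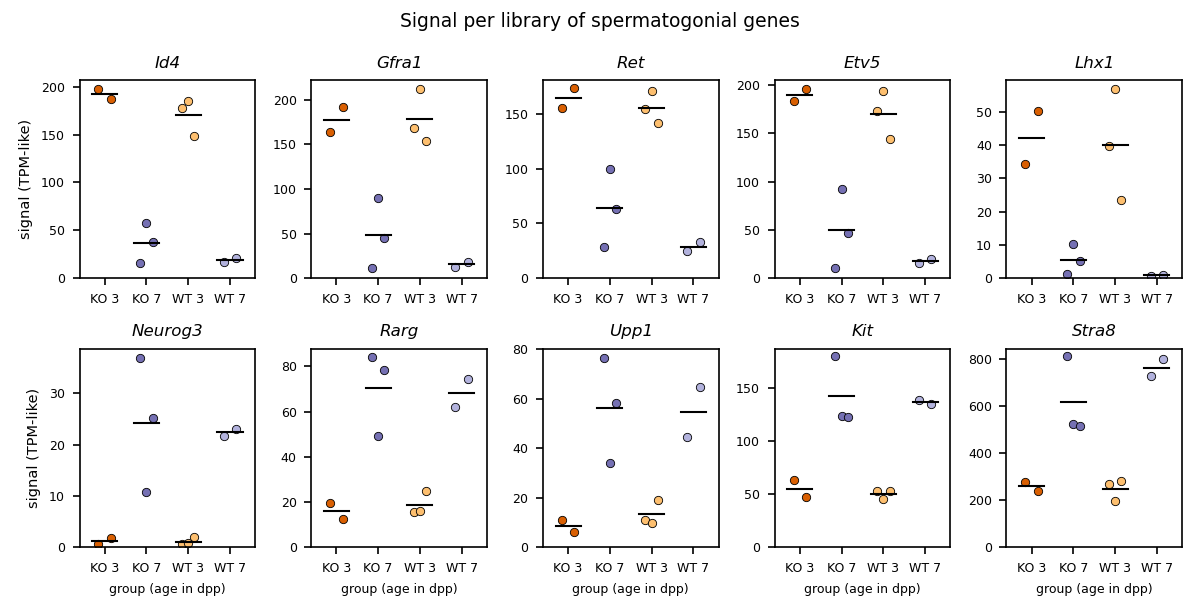
Signal per library (linear axis from 0) of 10 spermatogonial genes in KO and WT at 3 and 7 dpp; each point is a library and each bar the group mean. The upper row (Id4, Gfra1, Ret, Etv5, Lhx1) is lower at 7 dpp in both genotypes and the lower row (Neurog3, Rarg, Upp1, Kit, Stra8) is higher.

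The FGF and GDNF pathway list pointed the same way, with 10 of 24 members lower (41.7%) and 2 higher, and a median of -0.43. Some members are also in the undifferentiated list. Among its transcription factors, Etv4 fell from 229 and 307 to 11.7, 83.5 and 43.4 (-2.88 ± 0.59, adjusted p = 0.00686). The related factor Etv5 was at 184 and 196 and 10.4, 91.9 and 47.2 (-2.36 ± 0.63, adjusted p = 0.0199; 0.065 without library 16 and 0.083 without library 18). Of the Dusp, Spred and Spry genes on the list, which encode inhibitors of ERK signalling, Dusp5, Dusp6, Spry1 and Spry4 fell and 4 others were not called. Spry1 fell from 30.7 and 35.6 to 8.3, 17.2 and 13.3 (-1.34 ± 0.27), Spry4 from 24.4 and 26.4 to 0.911, 9.36 and 5.11 (-2.41 ± 0.53) and Dusp6, an ERK phosphatase, from 111 and 119 to 35.2, 77.1 and 45.7 (-1.19 ± 0.25). Ccnd1, the cyclin D1 gene that mitogens induce, fell from 174 and 162 to 53.8, 97.3 and 71.6 (-1.21 ± 0.22). The 2 members that rose were Fgf2, an FGF ligand, and Fgfr3, an FGF receptor. Fgf2 was at 0.852 and 0 and then 5.87, 3.55 and 5.07, against 1.6, 0.461 and 1.75 and 0.983 and 1.56 in WT. It met the signal threshold through the 7 dpp libraries alone, so its call is a description. Fgfr3 went from 7.47 and 7.8 to 13.0, 12.2 and 13.2 (0.68 ± 0.14). The pathway count was 7 lower without library 16, 6 without library 18 and 5 when the KO libraries were fitted alone.

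The 7 members of the undifferentiated list that rose were Zbtb16, Lin28a, Sox3, Neurog3, Foxo1, Taf4b and Upp1. Neurog3, a basic helix-loop-helix factor of progenitor spermatogonia, was at 0.615 and 1.81 at 3 dpp and at 36.9, 10.7 and 25.2 at 7 dpp (3.41 ± 0.46, adjusted p = 0.00166). Upp1, which encodes uridine phosphorylase 1, went from 11.0 and 5.9 to 76.6, 34.1 and 58.4 (2.58 ± 0.37). Sox3, a transcription factor needed for progenitor development, went from 144 and 81.8 to 353, 325 and 412 (1.73 ± 0.43). In each of the 3 genes the lowest 7 dpp library was library 5, which still lay above both 3 dpp libraries. Among the 7 members that rose, library 5 was the lowest at 7 dpp in 4 and library 4 in 3. Over all 2338 genes that rose, library 5 held the lowest 7 dpp value in 54.9%. Zbtb16 (PLZF) went from 77.0 and 51.5 to 106, 128 and 141 (0.97 ± 0.17), while in WT it was at 89.2, 79.6 and 91.0 and 78.5 and 95.7 (0.00 ± 0.17). The difference between those age changes was 0.97 ± 0.25 and did not pass (adjusted p = 0.133). Dppa3 (Stella), a factor of primordial germ cells and early embryos, was listed at 0 in both KO libraries at 3 dpp and at 16.8, 3.23 and 9.65 at 7 dpp. It too met the signal threshold through the 7 dpp libraries alone, so no test is given, nor a fold against a group at 0. WT libraries held 0.777, 0.551 and 0.815 and 13.2 and 10.6.

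Of 20 genes of differentiating spermatogonia, 8 rose (40.0%) and 4 fell, with a median of 0.34. Kit, the receptor for stem cell factor, was at 63.1 and 47.1 in KO at 3 dpp and at 180.2, 123 and 123 at 7 dpp (1.34 ± 0.18, adjusted p = 0.00157). Stra8, which retinoic acid induces and which licenses entry into differentiation and meiosis, was at 278 and 238 and 812, 523 and 514 (1.22 ± 0.21, adjusted p = 0.00341). The ages were apart in both genes, and library 4 stood above libraries 5 and 6, which were close to each other. Sohlh1, a germline helix-loop-helix factor, rose from 177 and 184 to 278, 273 and 256 (0.57 ± 0.09). Dnmt3b, a de novo DNA methyltransferase, rose from 63.4 and 44.7 to 127, 112 and 107 (1.10 ± 0.14). The 4 members that fell were Ccnd1, Uhrf1, a cofactor of maintenance DNA methylation, and the alpha-tubulin genes Tuba3a and Tuba3b. The tubulin pair are near-identical copies whose reads can be split between them, so their values are uncertain. Libraries 16 and 18 each left the direction of the list in place when left out (7 and 7 higher, 2 lower in either case).

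Among 23 tested genes of retinoic acid signalling, 7 rose (30.4%) and 1 fell, with a median of 0.45. The median was 0.25 without library 16 and 0.68 without library 18, and the higher count 11 after rescaling and 4 with the KO libraries alone. Of the receptors, Rarg, the retinoic acid receptor of spermatogonia, was at 19.6 and 12.2 at 3 dpp and at 84.2, 49.3 and 78.5 at 7 dpp (2.08 ± 0.27, adjusted p = 0.00157). Its heterodimer partner Rxrb went from 47.4 and 48.4 to 80.3, 61.3 and 76.3 (0.58 ± 0.13). Each 7 dpp library lay above both 3 dpp libraries for either receptor. Dhrs3, a retinaldehyde reductase that lowers retinoic acid formation, was the member that fell, from 9.49 and 11.9 to 3.05, 3.39 and 1.98 (-1.63 ± 0.30). Meioc, a meiotic cofactor and one of the targets listed, went from 6.34 and 6.83 to 19.5, 13.4 and 22.0 (1.32 ± 0.22). WT Meioc was at 14.7, 19.3 and 13.3 and 17.7 and 21.3 (0.30 ± 0.22, not called), so the KO libraries at 3 dpp were the low ones.

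The promoters of Stra8 and Rarg are shown because both genes are on the retinoic acid list and rose in KO. A link between the 2 genes was not tested. The 250 bases upstream of each RefSeq start are given 5′ to 3′ on the strand of the gene, from RefSeq on GRCm38.p6. Capitals mark AGGTCA, the half-site of retinoic acid receptors, or TGACCT, its reverse complement. The Stra8 window is chr6:34920698-34920947 on the plus strand and the Rarg window chr15:102257523-102257772 on the minus strand. Both lie upstream of the annotated start, outside the transcript.
Stra8: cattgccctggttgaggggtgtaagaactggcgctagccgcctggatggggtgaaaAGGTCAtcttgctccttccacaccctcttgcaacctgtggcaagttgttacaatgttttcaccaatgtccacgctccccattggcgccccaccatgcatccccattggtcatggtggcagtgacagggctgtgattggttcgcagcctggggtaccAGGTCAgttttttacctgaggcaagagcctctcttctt
Rarg: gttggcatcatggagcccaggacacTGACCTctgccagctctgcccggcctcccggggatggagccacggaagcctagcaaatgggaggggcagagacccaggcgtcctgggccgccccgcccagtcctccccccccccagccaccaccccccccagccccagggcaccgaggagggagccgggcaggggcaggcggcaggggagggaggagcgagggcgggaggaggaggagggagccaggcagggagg
Stra8 held 2 matches, which begin 194 and 38 bases upstream of the start. Rarg held 1, which begins 225 bases upstream, and of its 2 RefSeq windows only 1 held a match. The motif was found on either strand in 14.0% of all 32851 promoter windows of this length. It was in 8.7% of the windows of genes that rose in KO, in 13.4% of those of genes that fell and in 11.1% of those of genes tested. A match is a description of the letters and not a binding site.

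Of 31 tested genes of meiotic prophase, 8 rose (25.8%) and 4 fell (12.9%), with a median of 0.09 that turned to -0.12 after length and GC trends were taken out. Among axis and synaptonemal complex proteins, Sycp1 went from 120.3 and 99.0 to 171, 189.8 and 209 (0.79 ± 0.12), Sycp2 from 28.0 and 26.0 to 51.9, 36.6 and 50.3 (0.74 ± 0.14) and Sycp3 from 188 and 137 to 287, 273 and 275 (0.79 ± 0.14). Syce3, a central element protein of the same structure, fell from 147 and 147 to 78.7, 86.0 and 78.0 (-0.86 ± 0.13). WT Sycp1 was at 177, 163 and 191 and 187 and 189.7, so that the KO libraries at 3 dpp were the low ones. Without library 16 the count was 5 higher and 2 lower, and without library 18 it was the same pair of counts.

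The piRNA pathway, which silences transposons in germ cells, had 8 of 25 members higher (32.0%) and 2 lower. Piwil2, a PIWI protein, rose from 183 and 154 to 302, 259 and 260.1 (0.69 ± 0.10) and its partner Tdrd1, a tudor protein, from 92.5 and 85.3 to 144, 130.3 and 147 (0.65 ± 0.10). The members that fell were Tdrd12 and Gtsf1, a small zinc finger protein needed for PIWI slicing, which went from 291 and 319 to 198, 209 and 208 (-0.57 ± 0.10). In WT, Gtsf1 was at 198, 231 and 239 and 239.6 and 243. The count of higher members was 3 without library 18. Germ cell identity genes gave 5 higher (33.3%) and 1 lower (6.67%) of 15, against 15.1% and 13.2% of all genes tested. The 5 included Dppa3, which met the signal threshold through 7 dpp alone and supports nothing on the list. They also included Pou5f1, whose promoter drives the sorting marker. The one that fell was Tex101, a germ cell surface glycoprotein, from 399.7 and 384 to 229.9, 260.2 and 233 (-0.70 ± 0.13).

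Regulators of DNA methylation and histone modification gave 9 higher of 27 (33.3%) and 1 lower, which was Uhrf1. Tet3, which oxidises 5-methylcytosine, was at 10.3 and 7.94 and 36.3, 25.8 and 36.4 (1.73 ± 0.18, adjusted p = 0.000871). The H3K9 methyltransferase genes Ehmt2 (G9a) and Ehmt1 (GLP) rose from 267 and 218 to 471, 402 and 415 (0.82 ± 0.14) and from 39.1 and 27.4 to 55.8, 52.9 and 51.3 (0.68 ± 0.14). Bmi1, a Polycomb protein, rose from 57.5 and 57.7 to 112, 84.7 and 89.9 (0.71 ± 0.12). All 7 dpp values of these genes lay above both 3 dpp values. The count was 5 without library 18.

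Imprinted genes gave 7 lower and 3 higher of 29 (24.1% and 10.3%), with a median of -0.13 that was 0.05 after rescaling. H19, a non-coding RNA that somatic cells express from the maternal allele, fell from 149 and 165 to 54.1, 71.1 and 58.6 (-1.35 ± 0.17, adjusted p = 0.00146). Its neighbour Igf2, a growth factor expressed from the paternal allele there, fell from 63.9 and 52.5 to 16.0, 19.6 and 20.9 (-1.58 ± 0.24), and Mest from 135 and 129.8 to 20.1, 48.2 and 43.5 (-1.90 ± 0.31). The same genes fell in WT, with log2 differences of -1.20 ± 0.17, -2.29 ± 0.24 and -2.13 ± 0.31. Ube3a, a ubiquitin ligase, rose from 20.9 and 14.0 to 43.4, 35.8 and 38.4 (1.14 ± 0.18). Snurf and Snrpn, which share a transcript, were listed with identical values and count as 1 signal (23.5 and 22.1 and 4.69, 11.9 and 8.67).

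**Figure D2:**
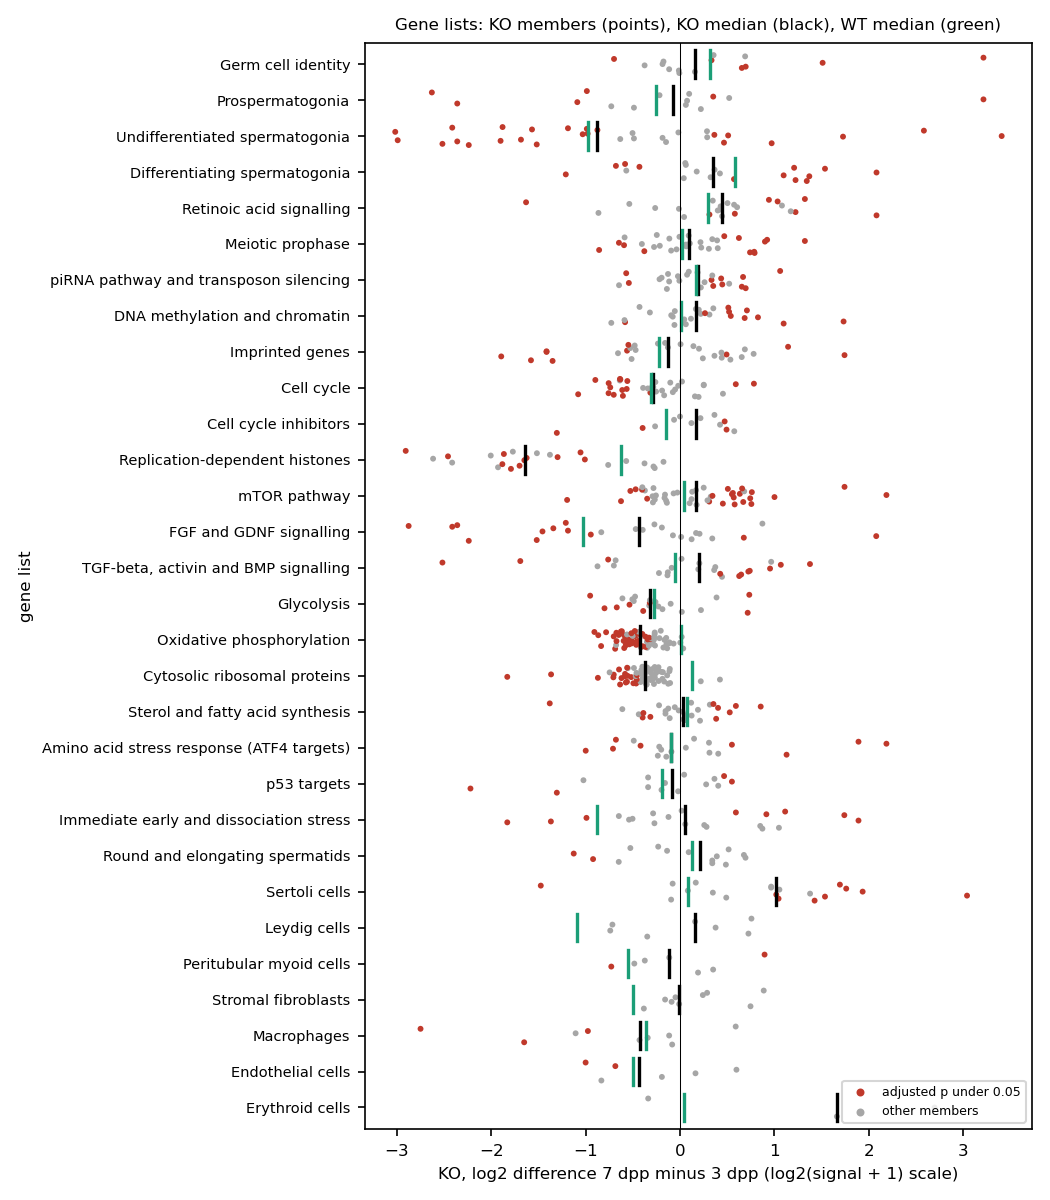
KO log2 difference, 7 dpp minus 3 dpp on the log2(signal + 1) scale, for the members of the 30 gene lists; each point is a gene (red where the adjusted p is under 0.05), black bars are KO medians and green bars WT medians. Lists of undifferentiated spermatogonia and FGF and GDNF signalling lie left of 0 in both genotypes, while oxidative phosphorylation and ribosomal proteins lie left of 0 in KO, with WT medians of 0.01 and 0.13.

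The largest changes were also set beside WT. Among the genes that fell furthest in KO, Nxph4, a neurexophilin, was at 66.2 and 94.6 and 4.77, 7.73 and 8.39 (-3.36 ± 0.37), Plaur, the urokinase receptor, at 24.1 and 32.3 and 0.795, 4.71 and 1.23 (-3.35 ± 0.50), and Abi3, an actin regulator, at 41.0 and 54.4 and 1.34, 5.79 and 3.44 (-3.54 ± 0.48). Gngt2, Sez6, Tmc8, Arhgap9, S100a6 and Fev had log2 differences of -3.57, -3.12, -3.11, -2.97, -3.36 and -2.91. Each of these 9 genes also passed in WT with the same sign, at log2 differences of -2.38 to -3.79. Among the genes that rose most, Tbx1, a T-box factor, was at 5.62 and 2.03 and 62.7, 13.9 and 22.8 (2.66 ± 0.52), Basp1, a membrane-bound signalling protein, at 12.0 and 36.3 and 282, 86.0 and 159.8 (2.85 ± 0.47), and Dpysl3, a cytoskeletal protein, at 1.79 and 1.1 and 16.9, 7.68 and 11.6 (2.37 ± 0.35). Igfbp6, Cthrc1 and Clec12b rose by 2.59, 2.43 and 2.40. Of these 6 genes, Tbx1, Dpysl3 and Igfbp6 passed in WT. Basp1, Cthrc1 and Clec12b did not, at WT differences of 1.29 ± 0.47, 1.54 ± 0.49 and 1.06 ± 0.34 (adjusted p = 0.0886, 0.0588 and 0.0627). Defb46, also among the extremes, was listed at 0 in both KO libraries at 3 dpp and at 30.7, 8.44 and 9.95 at 7 dpp, and met the signal threshold through 7 dpp alone. The extremes also held Rmrp, Tom1, Snora64, Snord15b and Snord32a. Rmrp was at 53.9 and 3707 at 3 dpp and 32.3, 8.1 and 32.3 at 7 dpp (-4.38 ± 1.38) and was not called without library 18 (-1.35, adjusted p = 0.31). Snora64 and Snord32a were not called without that library either, and Tom1 was not called without library 16 or library 18. Small nucleolar RNAs are short, mostly lack poly(A) tails and overlap host genes, so their values are uncertain.

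Cell cycle genes were lower at 7 dpp, with 13 of 35 called lower (37.1%), 2 higher and a median of -0.29. Ccne1, the cyclin E1 gene of the G1 to S transition, was at 55.3 and 48.4 and 23.0, 26.2 and 22.7 (-1.08 ± 0.12, adjusted p = 0.00119). Tyms, which makes thymidylate for DNA synthesis, fell from 51.8 and 47.8 to 30.6, 33.5 and 31.2 (-0.63 ± 0.11), and the mitotic kinase gene Cdk1 from 55.0 and 54.1 to 27.2, 39.4 and 30.1 (-0.76 ± 0.14). The 2 that rose were the kinetochore genes Cenpe and Cenpf. Cenpf went from 63.6 and 56.3 to 99.2, 104 and 108 (0.78 ± 0.11), against 94.3, 92.5 and 88.7 and 112 and 88.5 in WT. After rescaling the split was 12 lower and 7 higher. Of 12 cell cycle inhibitors, 2 fell and 2 rose (16.7% each), near the 13.2% and 15.1% of all genes tested. Cdkn1a (p21) was at 15.1 and 20.3 and 6.06, 6.17 and 7.29 (-1.31 ± 0.26), and the call of Cdkn2a (-0.40 ± 0.12) ended in 12 of the 19 alternatives.

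Replication-dependent histone genes gave 11 lower of 24 tested (45.8%) and 0 higher, with a median of -1.64 in KO and -0.63 in WT. No list had a lower KO median. H4c4 was at 52.2 and 73.5 and 18.9, 20.2 and 11.2 (-1.87 ± 0.34), and H1f1, a testis-expressed linker histone, at 29.0 and 36.5 and 5.96, 10.9 and 9.93 (-1.79 ± 0.31). WT libraries held 25.8, 14.9 and 23.8 of H4c4 at 3 dpp and 18.2 and 37.8 at 7 dpp, so the 3 dpp KO libraries were the high ones. H4c12 was at 14.0 and 45.1 and 0.95, 7.28 and 1.68 and was not called without library 18 (-2.10, adjusted p = 0.055). These transcripts lack poly(A) tails and their copies share sequence, so their levels in poly(A) libraries are uncertain. Without library 18 the count was 4.

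In the mTOR pathway, 17 of 45 tested members rose (37.8%) and 6 fell (13.3%), with a median of 0.17. Over all genes tested 15.1% rose and 13.2% fell, so the share of members that fell was near that of all genes. Akt1s1 itself was not called (0.175 ± 0.122, adjusted p = 0.305 by limma). Mtor, the kinase, rose from 59.9 and 55.1 to 89.4, 88.8 and 80.8 (0.58 ± 0.10). Rptor (raptor), the subunit that PRAS40 binds, rose from 24.7 and 22.6 to 40.0, 38.8 and 42.9 (0.76 ± 0.12, adjusted p = 0.00296). In WT, Rptor was at 35.0, 35.0 and 29.3 and 35.7 and 41.9, so KO values at 3 dpp lay below all other young libraries and those at 7 dpp within the WT range or just above it. Of the inhibitors, Ddit4 (REDD1), which acts through the TSC complex, was at 17.7 and 21.9 and 134, 56.3 and 107 (2.19 ± 0.28, adjusted p = 0.00148). It rose in WT too (1.53 ± 0.28). Depdc5, a subunit of the GATOR1 complex that blocks amino acid signalling to mTORC1, rose from 47.5 and 48.2 to 67.9, 71.1 and 66.2 (0.51 ± 0.08). Upstream, Pdpk1, the kinase that activates AKT, rose from 18.7 and 11.1 to 27.9, 30.4 and 31.6 (1.00 ± 0.18), and WT held 29.6, 33.2 and 35.3 and 26.3 and 29.4. The members that fell were Rps6kb2, Tbc1d7, Eif4e, Lamtor1, Lamtor4 and Lamtor5. Rps6kb2, the gene of S6 kinase 2, was at 40.7 and 50.4 and 15.5, 22.7 and 20.2 (-1.20 ± 0.18), with a similar estimate in WT (-1.13 ± 0.18). Tbc1d7, the third subunit of the TSC complex, fell from 62.8 and 70.2 to 44.1, 42.5 and 41.5 (-0.63 ± 0.11). The counts were 13 higher and 4 lower without library 16, 9 and 4 without library 18, and 9 and 3 without library 6. WT had 5 higher and 5 lower in the same list, and 0 members passed the test of the difference between genotypes (limma; 13 at an unadjusted p under 0.05).

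Genes of oxidative phosphorylation, the mitochondrial respiratory chain and ATP synthase, gave 40 lower of 74 tested (54.1%) and 0 higher, with a median of -0.42 in KO. In WT 3 rose and 1 fell, with a median of 0.01. Cox7a2, a subunit of complex IV, was at 306 and 279 at 3 dpp and 157, 171 and 152 at 7 dpp in KO (-0.87 ± 0.11, adjusted p = 0.00148) and at 179, 161 and 186 and 192 and 157 in WT. The 3 dpp KO libraries were above the 8 other young libraries, which overlapped. Ndufa12, of complex I, fell from 227 and 277 to 151, 145 and 125 (-0.84 ± 0.12), and Atp5j, of ATP synthase, from 409.8 and 369 to 189, 230.4 and 203 (-0.91 ± 0.11). The difference between the KO and WT age changes had an unadjusted p under 0.05 in 38 members, all with the more negative change in KO, against 6.82% of all genes tested in that direction, but 0 of them passed after adjustment. The count depended on scale: 20 fell after rescaling (median -0.21), 18 after quantile normalization (median -0.17), 23 after removal of length and GC trends, 13 without library 16, 20 without library 18, 24 without library 4 and 19 without library 6.

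Cytosolic ribosomal protein genes were also lower, with 20 of 74 called (27.0%), 0 higher and a median of -0.37, against 0.13 in WT. Rpl29 was at 2150.1 and 2090.1 and 1134, 1396 and 1383 (-0.71 ± 0.13), and Rplp1, an acidic stalk protein gene, at 3154 and 3112 and 1866, 2190.1 and 2007 (-0.64 ± 0.12; adjusted p = 0.069 after quantile normalization). WT held 1402, 1301 and 1446 and 1223 and 1489.9 of Rpl29, so the KO libraries at 3 dpp again stood above the rest. Rpl39 fell in both genotypes, with log2 differences of -1.37 ± 0.23 in KO and -1.52 ± 0.23 in WT. Processed pseudogenes share reads with these genes, so single values are uncertain. The direction of the list depended on the scale: after quantile normalization the median was 0.01, with 4 higher and 7 lower, and 7 were lower without library 16 and 12 without library 18 or library 4. With all 15 libraries 39 were lower.

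Short transcripts made up much of both lists, and transcript length moved with the age difference in KO over all genes. In 5 bins of the 13574 genes with a length, from the shortest to the longest, the median log2 difference in KO was -0.11, -0.10, -0.02, 0.11 and 0.25. The same bins in WT lay between -0.01 and 0.00. The part of length in the results on respiratory chain, ribosomal protein and histone genes was not tested beyond removing the trend.

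**Figure D3:**
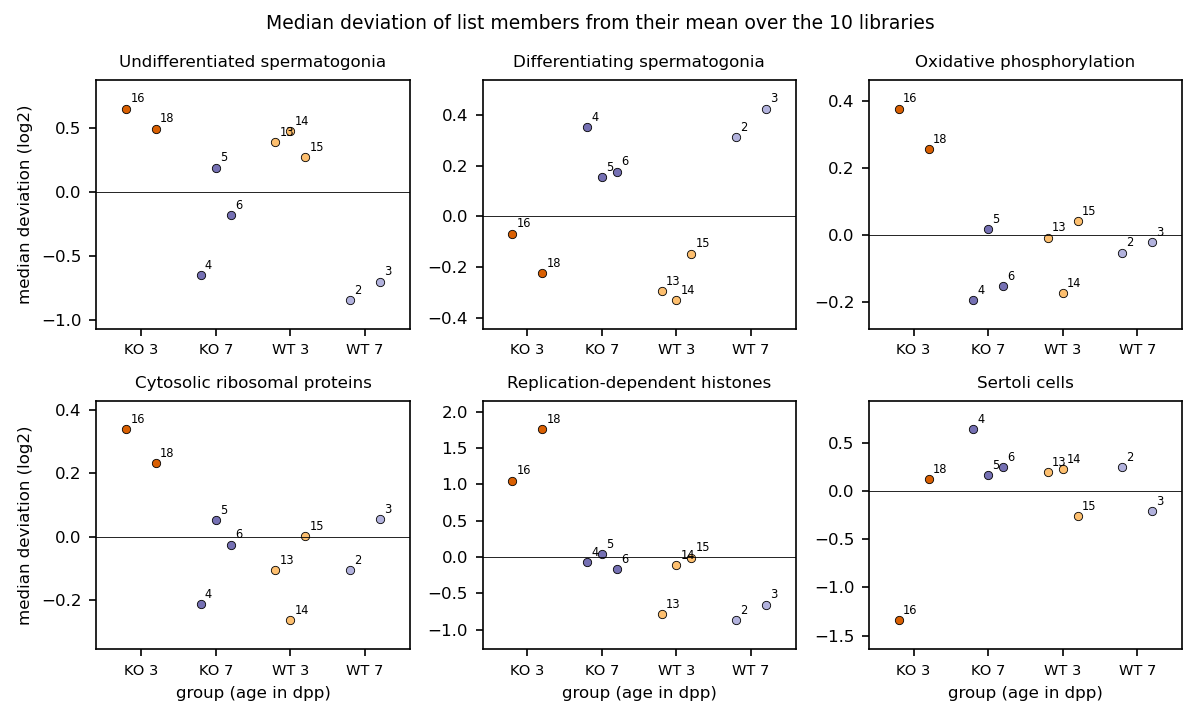
Median deviation (log2) of the members of 6 lists from their mean over the 10 young libraries, for each library (numbered points). Libraries 16 and 18 are the highest of the 10 for oxidative phosphorylation, ribosomal proteins and histones, library 5 lies nearest to 3 dpp among the KO libraries at 7 dpp for undifferentiated spermatogonia, and library 16 is the lowest for Sertoli cell markers.

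Glycolysis gave 6 lower (28.6%) and 2 higher (9.52%) of 21, against 13.2% and 15.1% of all genes tested. The lower count was 1 without library 4, 6 or 18, with no filter or after removal of length and GC trends, 2 after rescaling and 3 after quantile normalization. Aldoa (aldolase A) fell from 897 and 935 to 512, 657 and 564 (-0.67 ± 0.13), while Hk1 (hexokinase 1) rose from 47.3 and 40.3 to 68.1, 74.3 and 74.7 (0.72 ± 0.14). Sterol and fatty acid synthesis gave 6 higher and 4 lower of 29, which became 3 and 1 without library 6, 16 or 18 and 10 and 1 after rescaling. The 6 and 4 members are 20.7% and 13.8% of that list, against 15.1% higher and 13.2% lower of all genes tested. Acaca, the acetyl-CoA carboxylase that commits carbon to fatty acids, was at 38.6 and 33.4 and 68.0, 65.3 and 64.0 (0.85 ± 0.10, adjusted p = 0.00131), and Fasn, the fatty acid synthase, at 137 and 141 and 207, 226 and 198 (0.59 ± 0.12). WT Acaca was at 64.1, 65.7 and 56.3 and 64.4 and 62.5, so both KO libraries of 3 dpp lay below the other 8. Elovl6, a fatty acid elongase, fell from 40.1 and 44.8 to 9.77, 23.5 and 16.5 (-1.38 ± 0.27), with a WT difference of -1.88 ± 0.27.

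TGF-beta, activin and BMP signalling gave 8 higher and 3 lower of 25, with 4 and 5 without library 16, 5 and 5 without library 5, and 5 and 4 higher without libraries 4 and 6. The receptor gene Acvr2b rose from 38.1 and 38.5 to 65.9, 58.3 and 57.9 (0.65 ± 0.12) and the signal transducer Smad3 from 14.3 and 10.2 to 24.6, 21.8 and 26.8 (0.95 ± 0.15). Fst (follistatin), which traps activin, fell from 44.8 and 41.1 to 6.95, 19.5 and 14.4 (-1.69 ± 0.30). All 3 genes were apart between the ages. The shares of this list were 32% higher and 12% lower, against 15.1% and 13.2% of all genes tested.

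Among stress-response genes, the ATF4 targets gave 4 higher and 4 lower of 19, with 2 lower without library 16 or after rescaling and 1 without library 18. The ATF4 shares were 21.1% each, against 15.1% higher and 13.2% lower of all genes tested. Trib3, a pseudokinase, rose from 6.67 and 6.81 to 16.8, 14.3 and 16.8 (1.13 ± 0.24), and Shmt2, a mitochondrial serine enzyme, fell from 343 and 367 to 204, 219.7 and 226 (-0.71 ± 0.11). The p53 targets gave 2 higher and 2 lower of 14 (14.3% each), near the 15.1% and 13.2% of all genes tested. Immediate early genes and genes induced by dissociation gave 5 higher (23.8%) and 3 lower (14.3%) of 21 in KO, and 0 higher and 7 lower in WT. The KO direction rested on single libraries: it was 2 higher and 4 lower (median -0.24) without library 16, and 8 and 1 (median 0.27) without library 18. Egr2, an immediate early factor, fell from 77.8 and 72.4 to 11.1, 36.9 and 20.3 (-1.83 ± 0.35), and Atf3 was at 1.59 and 2.99 and 12.3, 10.8 and 9.76 (1.89 ± 0.42; adjusted p = 0.058 without library 16). Prospermatogonia markers gave 4 lower and 2 higher of 14, and 2 lower without library 18. The shares of this list were 28.6% lower and 14.3% higher. Dppa3, which met the signal threshold through 7 dpp alone, is among those that rose. Thy1, a cell surface glycoprotein, fell from 19.4 and 24.4 to 2.09, 3.03 and 2.98 (-2.63 ± 0.34).

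The sorted libraries also held transcripts that mark the somatic cells of the testis. Sertoli cell markers gave 8 higher (42.1%) and 1 lower (5.26%) of 19, with a median of 1.02. Over all genes tested 15.1% were higher and 13.2% lower. Gata1, which met the signal threshold through a single age, is among the 8 and supports nothing on the list. Cldn11, a tight junction protein, was at 2.99 and 10.5 and 109, 35.1 and 42.2 (3.04 ± 0.51) and Amhr2, the receptor for anti-Müllerian hormone, at 6.15 and 24.0 and 68.9, 39.6 and 46.1 (1.93 ± 0.42). The summed signal of the 19 markers was 585 in library 16 and 1913 in library 18 at 3 dpp, and 2541, 1589 and 1794 in libraries 4, 5 and 6. In WT it lay between 1230 and 1768, and no marker was at 0 in any young library. Library 16 was thus the low one, and library 18 lay within the range of 7 dpp. Without library 16 the list gave 2 higher and 3 lower, and without library 18 it gave 12 and 0. The higher count was 4 without library 4, 5 without library 6, 4 with no filter, 5 with no variance trend and 3 with the KO libraries alone. The part of Sertoli cell RNA in the other results was not tested.

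Of 9 macrophage markers, 3 fell and 0 rose, with a median of -0.43 that was 0.67 without library 16 and -1.67 without library 18. Fcer1g, an Fc receptor chain, was at 36.1 and 69.5 and 5.02, 7.1 and 8.01 (-2.75 ± 0.34), and Cd68, a lysosomal glycoprotein, at 24.6 and 16.2 and 4, 6.24 and 7.24 (-1.65 ± 0.27). The summed signal of all 11 listed markers was 128 and 94.9 at 3 dpp and 24.4, 20.6 and 51.9 at 7 dpp. Fcer1g and Cd68 made up most of the sum in library 18, so the sum largely repeats them there. The median deviation of the tested markers was 1.42 in library 16 and -0.56 in library 18. It was -0.03, -0.46 and 0.44 in libraries 4, 5 and 6, so by this measure the ages were not apart. Adgre1 and Ptprc were below the signal threshold. Leydig, stromal and erythroid markers had 0 calls by limma, with 0, 1 and 1 at an unadjusted p under 0.05, which 22.3% of all genes met as higher and 19.6% as lower. Myoid markers gave 1 higher and 1 lower of 7 (14.3% each), and endothelial markers 2 lower of 6 (33.3%). Spermatid genes gave 2 lower of 14 (14.3%), both with calls that other settings ended. Over all genes tested 15.1% were called higher and 13.2% lower.

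The same genes were compared between the ages in the WT libraries, which share no sample with the KO libraries. Both comparisons used the same fitted spread per gene, and the genes were chosen by their KO signal. The 2 sets of calls are therefore not independent. In WT 2339 genes passed (15.1%), 898 higher (5.81%) and 1441 lower (9.32%). The WT count was 538 without library 2, 997 without library 3, 1083 without library 14 and 1242 without library 13. Of the genes that rose in KO, 534 rose in WT (22.8% of the KO calls and 59.5% of the WT calls). Of those that fell in KO, 842 fell in WT (41.3% and 58.4%). The WT estimate had the sign of the KO call for 82.7% of the genes that rose and 86.5% of those that fell, and 5 genes in each direction passed with opposite signs. The share of equal signs over all genes tested was not counted, so these shares have no background beside them. Genes that rose in KO had a median log2 difference of 0.72 in KO and 0.28 in WT, and those that fell had -0.76 and -0.44, but the KO values chose these genes. Over all 15467 genes the age differences of the genotypes correlated with r = 0.614 (Spearman rho 0.541), as a description across genes, which are not independent replicates.

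**Figure D4:**
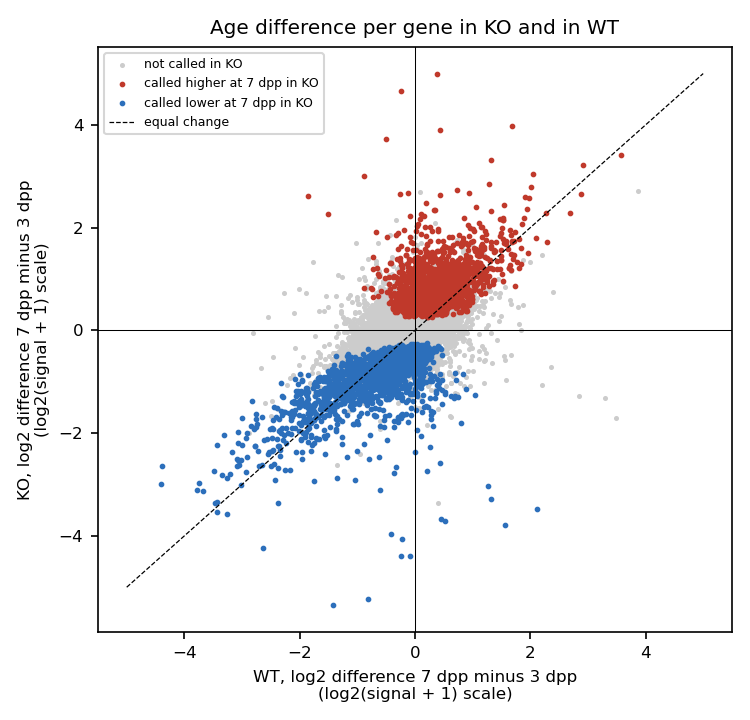
Age difference of each of the 15467 genes (7 dpp minus 3 dpp on the log2(signal + 1) scale) in WT (horizontal axis) and in KO (vertical axis); red and blue points passed in KO and the dashed line marks equal change. Most of the genes called in KO lie on the same side of 0 in WT, and the share over all genes was not counted.

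A test of the difference between the age changes passed in 8 genes (0.0517% of those tested), 4 with a more positive change in KO and 4 with a more negative one (0.0259% each). At an unadjusted p under 0.05 it held for 2729 (17.6%). Of the 8, 5 were provisional models and 3 had names. Amd2 and some of the provisional models met the signal threshold in KO through a single age, so their calls are descriptions. Amd2, which encodes an enzyme of polyamine synthesis, was listed at 0 in libraries 16 and 18, at 20.7, 20.4 and 34.3 in KO at 7 dpp, and at 23.8, 21.9 and 30.3 and 28.4 and 15.4 in WT. Amd2 is a near copy of Amd1, whose reads can be assigned to either, so the zeros are uncertain, and in KO it met the signal threshold through 7 dpp alone. Plxna1, a semaphorin receptor, was at 47.4 and 42.0 and 103, 106 and 109 in KO and at 92.3, 90.2 and 71.1 and 80.7 and 88.2 in WT, a difference between changes of 1.23 ± 0.17 (adjusted p = 0.0441). Lyrm4, which serves mitochondrial iron-sulfur cluster assembly, was at 71.0 and 71.5 and 40.3, 42.6 and 44.5 in KO and at 38.4, 39.6 and 42.7 and 46.1 and 49.6 in WT, a difference of -0.98 ± 0.14 (adjusted p = 0.0441). In each of the 3 genes the KO libraries at 3 dpp lay outside the range of the other 8. The call of Plxna1 ended in 10 of 18 alternatives and that of Lyrm4 in 8 of 18. The differences for Acaca (0.82 ± 0.15), Cox7a2 (-0.85 ± 0.16) and Sycp1 (0.70 ± 0.17) did not pass (adjusted p = 0.0882, 0.0882 and 0.116).

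**Figure D5:**
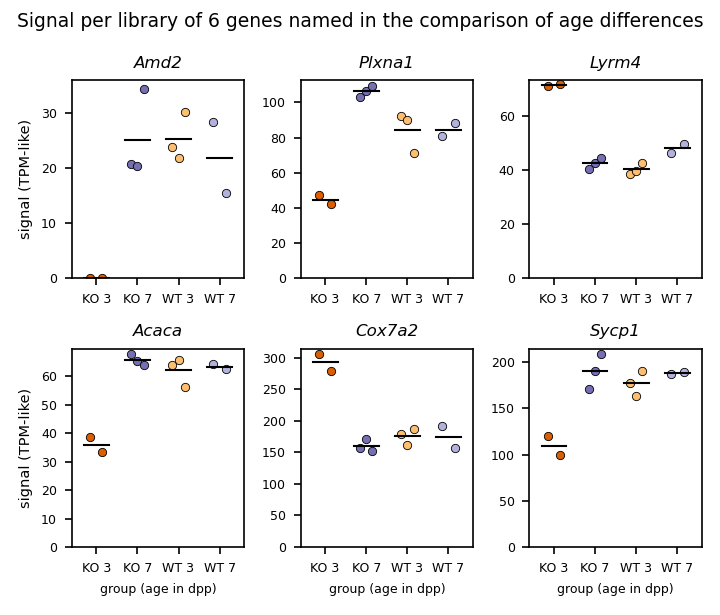
Signal per library (linear axis from 0) of Amd2, Plxna1 and Lyrm4, which passed the test of the difference between age changes, and of Acaca, Cox7a2 and Sycp1, which did not; points are libraries and bars group means. In all 6 genes the KO libraries at 3 dpp lie outside the range of the other groups.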

How the data were processed

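Poly(A) libraries were made with a Vazyme kit from about 1 to 2 times 1e4 sorted cells each. The authors deposited 1 signal value per gene and library. The submitters' processing notes name kallisto, Trim Galore, DESeq2 and the build mm10. Their versions, order and gene annotation are not given in the sources used here. Its unit was tested on the deposited signal: in each library all values under 1 lay on a grid of 0.01 after scaling to a total of 1000000, within 0.0006, as TPM with 2 decimals would. It is not a count, so depth and counting error are unknown. 0 columns of other samples were left out.

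Older gene symbols were replaced by current RefSeq symbols where the match was unique. The 10 young libraries (KO and WT at 3 and 7 dpp) were fitted with limma-trend (limma 3.58.1, R 4.3.3) on log2(signal + 1), with a mean per group and genes that reached a signal of 1 in 2 or more of the 5 KO libraries. Contrasts were 7 dpp minus 3 dpp in KO, the same in WT, and their difference. P-values are two-sided and were adjusted by the Benjamini-Hochberg method over the 15467 genes, with a threshold of 0.05. Log2 differences with a pseudocount of 1 understate changes at low signal. The fit was checked on simulated data. Adult libraries were left out of the fit, and a fit of all 15 libraries was an alternative. Further alternatives were a fit of the compared groups alone, a pseudocount of 0.1, no filter, a minimum signal of 5, rescaling, quantile normalization, no variance trend, removal of length and GC trends, and leaving out each of the 10 libraries.

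The members and the 30 gene lists were chosen with earlier results of these data known. The rule named Akt1s1, Pou5f1, the 14 highest and 14 lowest differences among called genes with a mean signal of at least 5 and no overlap, up to 5 called members per list by p, and genes that passed the test of the difference between genotypes. Provisional models were counted only. Other genes named with values, such as Gfra1, Ret, Sox3, Zbtb16, Spry4, Dusp6, Mtor and Pdpk1, were chosen after their values were seen.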

Additional observations from a re-analysis of the deposited data

Results flagged for a closer look

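The test of the difference between the KO and WT age changes passed in 3 named genes, but for Amd2 the call is a description. The log2 difference between the changes was 4.92 for Amd2, 1.23 for Plxna1 and -0.98 for Lyrm4. Amd2 was listed at 0 in both KO libraries at 3 dpp and met the signal threshold in KO through a single age. Its fitted value therefore depends on the pseudocount of 1 and is no bound. Of 18 alternatives, 10 ended the call of Plxna1 and 8 ended that of Lyrm4.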

How the results depend on the processing

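No paired analysis was run, because the sample titles give no pairing of libraries between groups. The count of KO calls stayed within 1.5 times of 4379 under all 9 alternatives that kept the libraries, and ran from 2291 to 4474 when each library was left out in turn. KO genes called higher numbered 1519 with the KO libraries alone and 4139 after rescaling, and 1326 to 2363 over the left-out libraries. Those called lower numbered 1235 after rescaling and 965 to 2161 over the left-out libraries. WT calls ran from 538 to 2592 over the left-out libraries, those higher from 179 to 1039 and those lower from 359 to 1564. WT calls higher were 1445 with all 15 libraries and 1550 after removal of length and GC trends. The 8 genes that differed between genotypes became 442 with all 15 libraries, 421 after rescaling, 3 after removal of length and GC trends and 1 to 110 over the left-out libraries. Those with the more positive KO change (4) became 310, 400, 2 and 1 to 84 in that order, 8 with a pseudocount of 0.1 and 2 with no filter. Those with the more negative change (4) became 132, 21, 1 and 0 to 26, and 2 with a pseudocount of 0.1. Of 135 named genes called in KO, 105 kept the call in every alternative, 29 lost it without at least one library and 16 in another alternative. Uncalled estimates changed sign over the left-out libraries for Nr5a1 (-0.109 without library 16, up to 1.621), Vim (-0.057 without library 16, up to 1.829), Star (-0.177 without library 6, up to 0.721) and Cyp17a1 (-0.361 without library 6, up to 1.491). The cause was not tested. With depth unknown, differences at low signal carry no counting error here.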

Other observations

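Hspa1a and Hspa1b, near-identical copies of the inducible chaperone HSP70 whose reads can be split between them, were at 3.93 and 5.34 and 17.7 and 15.4 in KO at 3 dpp and at 17.1, 14.8 and 21.8 and 32.0, 32.7 and 31.4 at 7 dpp (1.74 ± 0.26 and 0.91 ± 0.17). Pmaip1 (NOXA), a BH3-only protein of the apoptotic pathway and 1 of the p53 targets that fell, was at 53.9 and 63.9 and 4.88, 22.9 and 13.9 (-2.22 ± 0.45, adjusted p = 0.00653), against 24.8, 19.4 and 19.6 and 14.0 and 8.63 in WT.

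Library 18 held Lars2, a mitochondrial leucyl-tRNA synthetase gene, at 3964 against 324 in library 16 and 114 to 215 in the KO libraries at 7 dpp.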
